A study of Mus musculus with 15 samples.

Results

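Mature wild-type CD4 single-positive (CD4 SP) thymocytes were compared with mature wild-type CD8 single-positive (CD8 SP) thymocytes, to describe their helper and cytotoxic gene programmes. The comparison used 6 libraries, 3 of WT CD4 SP and 3 of WT CD8 SP, out of 15 libraries of the series, chosen by their group names. Both populations were CD45.1+CD45.2+ wild-type competitor cells on a C57BL/6 background, taken from the thymus of mixed bone marrow chimeras made by mixing wild-type marrow with marrow of Thpok fl/fl Runx3 fl/dYFP Cd4-Cre+ donors, with or without the Thpok-RKF allele, and transplanting the mixture into irradiated hosts. The mutant cells are not part of this comparison, but their libraries entered the fit behind the test. WT CD4 SP cells came from B2m-/- hosts, whose own tissue lacks surface MHC class I, and WT CD8 SP cells came from I-Ab-/- hosts, whose own tissue lacks MHC class II. Lineage and host therefore changed together, and their parts in any difference cannot be told apart. Both populations were sorted as CD44lo TCRbhi CD24lo CD69lo cells, CD4+CD8- for WT CD4 SP and CD4-CD8+ for WT CD8 SP. The ages of the animals and the number of animals behind a library are not given. The p-values and standard errors rest on a spread within groups that was estimated over all 15 libraries, mutant ones included. That spread is between libraries and may be technical in part.

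Developing thymocytes whose receptor is selected on MHC class II become CD4 helper cells, and those selected on MHC class I become CD8 cytotoxic cells. ThPOK, the zinc finger protein encoded by Zbtb7b, is required for the helper fate and holds back the cytotoxic one, while Runx3 is required for the cytotoxic fate and silences Cd4. Gata3 acts upstream of Zbtb7b. Mature single-positive cells of either kind then raise the egress receptor S1pr1 and leave the thymus.

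The sorted identity was read first from the coreceptor and factor genes. Values are CPM, the counts of a gene scaled to a fixed library total, and they serve to compare libraries for 1 gene, not levels between genes. For single genes the library sizes were scaled by edgeR's TMM factors, and for summed levels of lists they were not. Cd4 was at 874, 969.6 and 822 CPM in WT CD4 SP libraries 1 to 3, against 3.86, 0.803 and 0.979 CPM in WT CD8 SP libraries 1 to 3. Cd8a was at 7.68, 3.19 and 2.13 CPM in WT CD4 SP, against 1181, 1642 and 1607 CPM in WT CD8 SP. Zbtb7b was at 63.97, 79.2 and 27.4 CPM in WT CD4 SP libraries 1 to 3, against 0.239, 0.376 and 0.0933 CPM in WT CD8 SP libraries 1 to 3. Runx3 was at 30.8, 32.4 and 23.1 CPM in WT CD4 SP, against 220.2, 202 and 194 CPM in WT CD8 SP. None of these 4 genes overlapped between the groups, and each followed its label in every library. Because Cd4, Cd8a, Cd8b1, Cd44, Cd24a and Cd69 encode proteins of the sort gate, their levels are a check of the sort and not a finding. The fold change of Cd4 was set in part by WT CD8 SP library 1, since it was 8.90 ± 0.58 on the log2 scale with all libraries and 9.99 without that library. For Cd8a the fold change was -8.42 ± 0.43, and -9.09 without WT CD4 SP library 1.

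The libraries held 43858116 to 48568643 counts in genes for WT CD4 SP and 37311823 to 44984709 for WT CD8 SP. Replicates differed by more than counting noise. Among WT CD8 SP libraries the chi-square of counts over genes, per degree of freedom, was 11.14 between libraries 2 and 3, and 58.24 and 67.83 between library 1 and those. Among WT CD4 SP libraries it was 43.96 between libraries 1 and 2, and 91.87 and 87.23 between library 3 and those.

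Of 53762 genes in the table, 16550 passed the filter on low counts and were tested with edgeR's quasi-likelihood test, adjusted by the method of Benjamini and Hochberg. With an adjusted p under 0.05, 2981 genes were called, which is 18% of those tested. Of these, 1277 (7.72%) were higher in WT CD4 SP and 1704 (10.3%) were lower. Counts of called list members, given below, are to be read beside these shares. The lists were chosen with earlier results of these data known, so their counts are descriptions and not tests. A change of at least 2-fold was seen in 1397 called genes (8.44%), 561 of them higher (3.39%) and 836 lower (5.05%) in WT CD4 SP. Changes of 6 or more on the log2 scale were seen in 48 genes called higher and 80 called lower. Called genes held 31.23% of all CPM in WT CD4 SP, against 32.25% in WT CD8 SP. Without WT CD4 SP library 3, 2170 genes were called, and without WT CD8 SP library 1, 2259. Without WT CD8 SP library 2 the count was 1908, the one fit of the 6 that moved it by over 1.5 times.

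**Figure D1:**
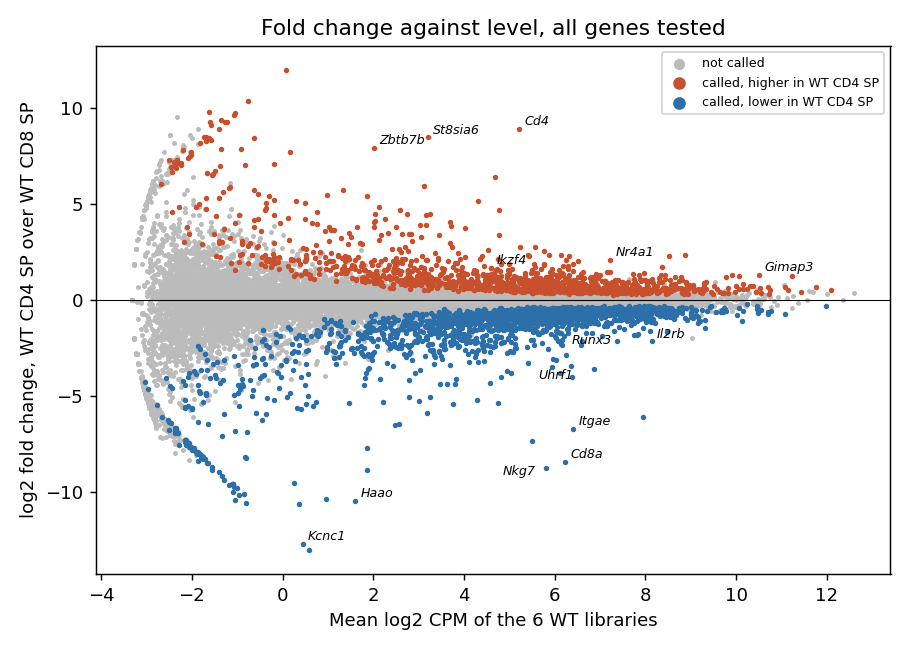
Log2 fold change of WT CD4 SP over WT CD8 SP (y axis) against the mean log2 CPM of the 6 libraries (x axis) for the 16550 genes tested, 1 point a gene. Orange points are the 1277 called higher in WT CD4 SP and blue points the 1704 called lower, and the genes with the largest folds in either direction lie mostly at low mean levels.

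The factors that set the lineage were split between the populations. Of 18 listed lineage switch factors, all tested, 5 were higher and 4 were lower in WT CD4 SP, and the list's median log2 fold change was 0.15, beside -0.03 over all genes tested. Zbtb7b itself was far higher in WT CD4 SP (log2 fold change 7.91 ± 0.47, edgeR adjusted p = 4.6e-08). Gata3 was at 69.4, 100.4 and 111 CPM in WT CD4 SP, against 38.3, 41.5 and 39.2 CPM in WT CD8 SP. Gata3 differed by 1.24 ± 0.16 on the log2 scale (edgeR adjusted p = 0.00011). Every WT CD4 SP library was above every WT CD8 SP library for Gata3, although library 1 was the lowest of its group. Runx1, a Runx protein that represses Cd4 in earlier thymocytes, averaged 54.2 ± 12.1 CPM in WT CD4 SP and 23.2 ± 1.88 CPM in WT CD8 SP (SD, n = 3 each; log2 fold change 1.23 ± 0.18, edgeR adjusted p = 0.00024). Runx3 was lower in WT CD4 SP (log2 fold change -2.84 ± 0.15, edgeR adjusted p = 2.2e-08) but was not off, at a mean of 28.8 ± 4.95 CPM. Runx1 and Runx3 thus differed in opposite directions. Zbtb7a, the nearest relative of Zbtb7b, was lower in WT CD4 SP, at 68.6, 62.4 and 56.8 CPM, against 107, 94.3 and 108 CPM in WT CD8 SP. Zbtb7a differed by -0.72 ± 0.10 on the log2 scale (edgeR adjusted p = 0.00026). Tcf7, which encodes TCF-1 and is needed for Zbtb7b induction, was at 1896, 2203 and 2041 CPM in WT CD4 SP and 1349, 1535 and 1453 CPM in WT CD8 SP. Tcf7 differed by 0.50 ± 0.10 on the log2 scale (edgeR adjusted p = 0.0028).

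**Figure D2:**
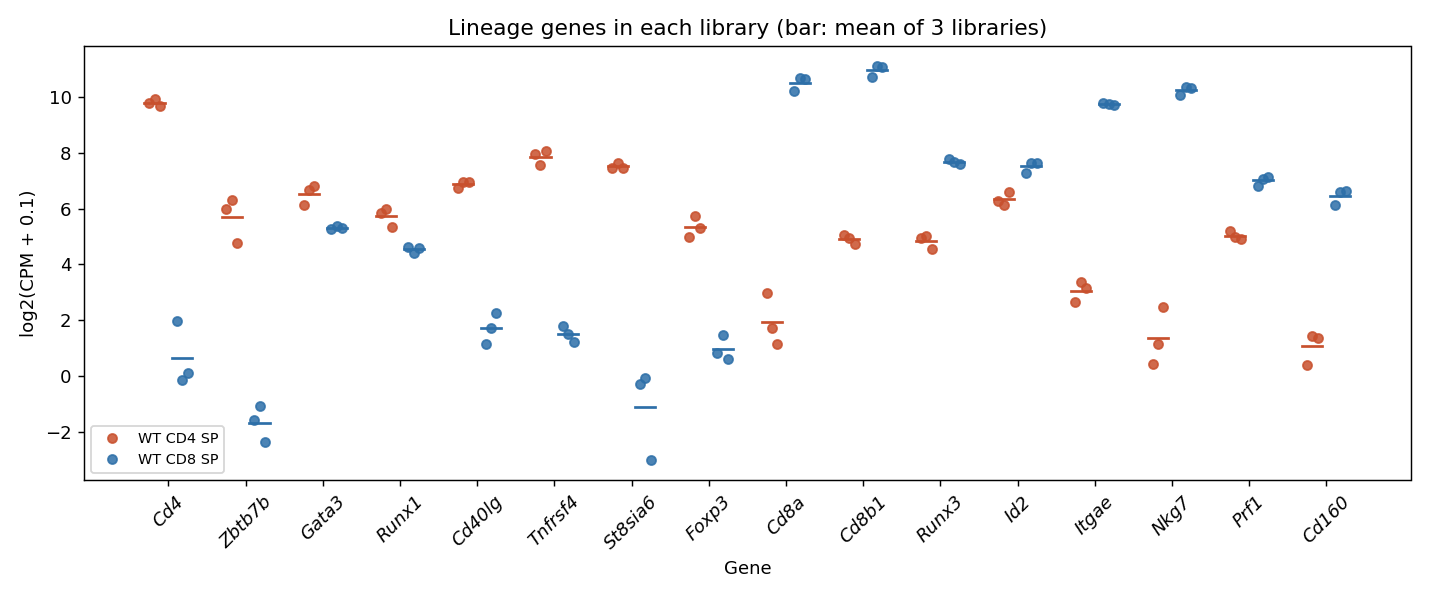
Levels of 16 lineage genes on a log2(CPM + 0.1) axis, 1 point a library, with WT CD4 SP in orange at the left and WT CD8 SP in blue at the right of each gene and a bar at the mean of 3 libraries. The groups do not overlap for any of the 16 genes, and Gata3, Runx1 and Id2 are separated by the smallest distances.

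Broader regulators of thymocyte identity went both ways. Among 24 tested identity factors 4 were higher and 5 lower in WT CD4 SP. Their median was 0.07, and it was -0.15 without WT CD4 SP library 1 and 0.14 without WT CD4 SP library 3. Satb1, a chromatin organiser needed for lineage genes in thymocytes, averaged 1706 ± 57.1 CPM in WT CD4 SP and 1042 ± 87.97 CPM in WT CD8 SP. Satb1 differed by 0.71 ± 0.08 on the log2 scale (edgeR adjusted p = 2e-05). Ets1, a factor bound across T cell enhancers, averaged 2734 ± 133 CPM in WT CD4 SP and 1708 ± 45.3 CPM in WT CD8 SP. Ets1 differed by 0.68 ± 0.09 on the log2 scale (edgeR adjusted p = 9.8e-05). Nr3c1, the glucocorticoid receptor, was also higher (log2 fold change 0.50 ± 0.12, edgeR adjusted p = 0.0094). In the other direction, Id2, an inhibitor of E proteins that supports the cytotoxic lineage, was at 77.8, 70.3 and 95.6 CPM in WT CD4 SP, against 156, 199 and 197 CPM in WT CD8 SP. Id2 differed by -1.18 ± 0.16 on the log2 scale (edgeR adjusted p = 0.00019). Themis, a signalling protein of positive selection, was at 151 ± 16.8 CPM in WT CD4 SP and 249 ± 9.64 CPM in WT CD8 SP. Themis differed by -0.73 ± 0.10 on the log2 scale (edgeR adjusted p = 0.00015). Ikzf3, which encodes Aiolos, was lower as well (log2 fold change -0.79 ± 0.18, edgeR adjusted p = 0.0077).

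Effector and innate-like factors were called in both directions, 6 of 27 tested higher and 4 lower in WT CD4 SP. Nr4a1, an orphan nuclear receptor induced by receptor signalling, was at 275, 326 and 325 CPM in WT CD4 SP, against 63.9, 73.01 and 81.2 CPM in WT CD8 SP. Nr4a1 differed by 2.09 ± 0.30 on the log2 scale (edgeR adjusted p = 0.00024). Ikzf4, which encodes Eos, averaged 43.4 ± 2.43 CPM in WT CD4 SP and 13.5 ± 2.52 CPM in WT CD8 SP. Ikzf4 differed by 1.68 ± 0.22 on the log2 scale (edgeR adjusted p = 0.0001). Prdm1, which encodes Blimp-1, was at 11.7, 6.93 and 4.07 CPM in WT CD4 SP and 0.558, 0 and 0.909 CPM in WT CD8 SP. Prdm1 differed by 3.94 ± 0.75 on the log2 scale (edgeR adjusted p = 0.0023). Its fold change was 4.79 without WT CD8 SP library 3. Eomes, a T-box factor of memory CD8 cells, was lower in WT CD4 SP, at 2.70, 0.724 and 0.252 CPM, against 11.1, 15.6 and 17.4 CPM in WT CD8 SP (log2 fold change -3.59 ± 0.62, edgeR adjusted p = 0.0011), and the fold change was -4.86 without WT CD4 SP library 1. Stat4, which carries interleukin-12 signals, averaged 32.8 ± 2.29 CPM in WT CD4 SP and 62.03 ± 4.56 CPM in WT CD8 SP. Stat4 differed by -0.92 ± 0.13 on the log2 scale (edgeR adjusted p = 0.00018). Ikzf2, which encodes Helios, was lower as well, at 5.35, 8.90 and 12.1 CPM in WT CD4 SP and 23.6, 35.5 and 30.4 CPM in WT CD8 SP. Ikzf2 differed by -1.76 ± 0.40 on the log2 scale (edgeR adjusted p = 0.0072).

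Some genes beside Zbtb7b differed with it. Tested genes were ordered by RefSeq's gene table for GRCm38.p6, which placed 14638 of them, and runs of at least 3 adjacent genes called at least 2-fold in the same direction were counted. There were 15 such runs holding 49 genes, 7 of them higher and 8 lower in WT CD4 SP, and they were looked for after the values had been seen. The longest run held 6 genes: Efna4, Adam15, Dcst1, Dcst2, Zbtb7b and the predicted gene Gm15417. Beyond Gm15417, Flad1 differed by only 0.60 ± 0.16 on the log2 scale (edgeR adjusted p = 0.015). The next gene, Cks1b, went the other way, at -1.10 ± 0.22 (edgeR adjusted p = 0.0031). Adam15, a membrane metalloprotease, was at 8.84, 9.13 and 3.61 CPM in WT CD4 SP, against 0.372, 0.552 and 0.630 CPM in WT CD8 SP. Adam15 differed by 3.79 ± 0.51 on the log2 scale (edgeR adjusted p = 0.00014). Gm15417 was at 5.09, 7.18 and 9.03 CPM in WT CD4 SP, against 0.0532, 0.376 and 0.210 CPM in WT CD8 SP (log2 fold change 5.03 ± 0.52, edgeR adjusted p = 1.3e-05), and at 5.71 on the log2 scale without WT CD8 SP library 2. In the GENCODE M21 annotation Gm15417 overlaps Zbtb7b on the opposite strand, and whether the counting used strand is not given, so reads of the pair cannot be told apart. Dcst2 stood at 0.525, 0.290 and 0.595 CPM in WT CD4 SP and at 0 in all 3 WT CD8 SP libraries. Dcst1 and Dcst2 also overlap on opposite strands in that annotation, so their reads may be shared. Efna4 was called by a small margin (log2 fold change 3.01 ± 0.92, edgeR adjusted p = 0.035) and was not called when any 1 of the 6 libraries was left out, and Dcst1 (log2 fold change 3.08 ± 0.97, edgeR adjusted p = 0.04) kept its call in only 1 of those 6 fits. The fold change of Efna4 lay between 2.45 without WT CD8 SP library 3 and 3.63 without WT CD8 SP library 1, and that of Dcst1 between 2.52 without WT CD8 SP library 2 and 3.77 without WT CD8 SP library 1.

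Other runs joined genes of known lineage. Tnfrsf4 and Tnfrsf18 were higher in WT CD4 SP together with Gm16008, which overlaps Tnfrsf18 on the opposite strand. Gimap4, Gimap6 and Gimap7 were higher in a row. Klrd1, Klrk1 and Klra6 of the natural killer receptor complex were lower, with Gabarapl1 beside them, and Klra6 lost its call in 2 of the 6 fits that leave out a library. Kcna3, AI504432 and Kcna2 were lower in a row, and Kcna2, a potassium channel gene, was at 4.41, 3.79 and 3.04 CPM in WT CD4 SP, against 31.8, 23.01 and 25.4 CPM in WT CD8 SP. Kcna2 differed by -2.83 ± 0.24 on the log2 scale (edgeR adjusted p = 2e-06). Haspin, which lies inside Itgae on the opposite strand, differed by -1.09 ± 0.15 on the log2 scale, and Itgae itself by -6.68 ± 0.20.

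Surface and signalling genes of the helper lineage were among those called higher in WT CD4 SP, in a list chosen with earlier results known. Of 25 helper-lineage genes, all tested, 14 were higher in WT CD4 SP and 0 lower, with a median log2 fold change of 0.92. No WT CD4 SP library came within the WT CD8 SP values for 16 of the 25 genes, beside 36.3% of all genes tested whose groups kept apart in this way. Tnfrsf4 was at 247, 188 and 269 CPM in WT CD4 SP libraries 1 to 3, against 3.38, 2.71 and 2.24 CPM in WT CD8 SP libraries 1 to 3. Tnfrsf4 encodes OX40, a costimulatory receptor of the TNF family (log2 fold change 6.40 ± 0.41, edgeR adjusted p = 9.5e-08). Cd40lg was at 106, 125 and 125 CPM in WT CD4 SP libraries 1 to 3, against 2.10, 3.24 and 4.69 CPM in WT CD8 SP libraries 1 to 3. Cd40lg encodes CD40 ligand, through which helper cells license B cells and dendritic cells (log2 fold change 5.14 ± 0.31, edgeR adjusted p = 6.7e-08). Ptgir was at 64.3, 72.4 and 65.5 CPM in WT CD4 SP libraries 1 to 3, against 0.745, 1.71 and 0.863 CPM in WT CD8 SP libraries 1 to 3. Ptgir encodes the prostacyclin receptor (log2 fold change 5.93 ± 0.34, edgeR adjusted p = 3.2e-08). St8sia6 was at 177, 199 and 177 CPM in WT CD4 SP libraries 1 to 3, against 0.718, 0.853 and 0.0233 CPM in WT CD8 SP libraries 1 to 3. St8sia6 encodes a sialyltransferase (log2 fold change 8.46 ± 0.53, edgeR adjusted p = 8.8e-08), and WT CD8 SP library 3 was the lowest of the 3.

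Costimulatory and inhibitory receptors were called mostly higher in WT CD4 SP. Cd28, the main costimulatory receptor, averaged 407 ± 32.2 CPM in WT CD4 SP and 155 ± 31.7 CPM in WT CD8 SP. Cd28 differed by 1.39 ± 0.19 on the log2 scale (edgeR adjusted p = 0.00014). Cd200, a ligand that restrains myeloid cells, averaged 78.9 ± 15.3 CPM in WT CD4 SP and 26.2 ± 2.49 CPM in WT CD8 SP. Cd200 differed by 1.59 ± 0.17 on the log2 scale (edgeR adjusted p = 1.5e-05). Cd200r1, its receptor, averaged 34.7 ± 3.77 CPM in WT CD4 SP and 2.27 ± 0.554 CPM in WT CD8 SP. Cd200r1 differed by 3.93 ± 0.25 on the log2 scale (edgeR adjusted p = 9.6e-08). Across the coinhibitory and CD28 family 7 of 21 tested genes were higher and 3 lower in WT CD4 SP, and the lower ones were Cd160, Cd226 and Vsir. Vsir, which encodes the checkpoint protein VISTA, was at 271, 284 and 179 CPM in WT CD4 SP, against 371, 439 and 475 CPM in WT CD8 SP. Vsir differed by -0.81 ± 0.16 on the log2 scale (edgeR adjusted p = 0.0029). In the TNF families 9 of 30 tested genes were higher and 2 lower. Tnfrsf25, which encodes the receptor DR3, was at 81.7, 110.3 and 109.5 CPM in WT CD4 SP and 18.8, 11.3 and 13.8 CPM in WT CD8 SP. Tnfrsf25 differed by 2.78 ± 0.28 on the log2 scale (edgeR adjusted p = 8.5e-06). Tnfrsf1b, TNF receptor 2, went the other way, with 145 ± 14.7 CPM in WT CD4 SP and 236 ± 26.5 CPM in WT CD8 SP. Tnfrsf1b differed by -0.70 ± 0.11 on the log2 scale (edgeR adjusted p = 0.00058).

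Several of the largest rises, among genes with a mean log2 CPM of at least 3, were in no helper list. Lgmn, which encodes the lysosomal protease legumain, averaged 44.8 ± 11.8 CPM in WT CD4 SP and 1.99 ± 0.476 CPM in WT CD8 SP. Lgmn differed by 4.49 ± 0.23 on the log2 scale (edgeR adjusted p = 1.3e-08). Tbc1d4, a regulator of glucose transporter traffic, averaged 51.3 ± 12.1 CPM in WT CD4 SP and 3.50 ± 1.38 CPM in WT CD8 SP. Tbc1d4 differed by 3.87 ± 0.27 on the log2 scale (edgeR adjusted p = 2.3e-07). Pdlim4, an actin-associated PDZ and LIM protein, averaged 54.03 ± 11.2 CPM in WT CD4 SP and 3.25 ± 1.45 CPM in WT CD8 SP. Pdlim4 differed by 4.06 ± 0.27 on the log2 scale (edgeR adjusted p = 1.6e-07). H1f0, a linker histone, averaged 35.2 ± 5.88 CPM in WT CD4 SP and 3.34 ± 0.659 CPM in WT CD8 SP. H1f0 differed by 3.40 ± 0.34 on the log2 scale (edgeR adjusted p = 9.9e-06). Ckb, brain-type creatine kinase, averaged 124 ± 9.59 CPM in WT CD4 SP and 18.1 ± 2.47 CPM in WT CD8 SP (log2 fold change 2.78 ± 0.33, edgeR adjusted p = 4.2e-05), and Mmp11, a matrix metalloprotease, averaged 34.2 ± 4.03 CPM in WT CD4 SP and 5.08 ± 0.626 CPM in WT CD8 SP. Mmp11 differed by 2.75 ± 0.25 on the log2 scale (edgeR adjusted p = 4e-06). The WT CD4 SP libraries lay above all WT CD8 SP libraries for each of these 6 genes.

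Judged by the difference in CPM, other genes led. Rsrp1, which encodes an arginine and serine rich protein, was at 3394, 3629 and 4181 CPM in WT CD4 SP, against 2023, 1373 and 1332 CPM in WT CD8 SP. Rsrp1 differed by 1.24 ± 0.23 on the log2 scale (edgeR adjusted p = 0.0016). Tspan32, a tetraspanin, was at 1049, 907 and 1242 CPM in WT CD4 SP, against 185, 214 and 223 CPM in WT CD8 SP. Tspan32 differed by 2.36 ± 0.17 on the log2 scale (edgeR adjusted p = 2.5e-07). Arhgef1, an exchange factor for RhoA, averaged 4348 ± 224 CPM in WT CD4 SP and 2743 ± 251 CPM in WT CD8 SP. Arhgef1 differed by 0.66 ± 0.15 on the log2 scale (edgeR adjusted p = 0.0059). On the other side, Pik3cd, the catalytic p110 delta subunit of PI 3-kinase, was at 778, 894 and 658 CPM in WT CD4 SP, against 1566, 1665 and 1702 CPM in WT CD8 SP. Pik3cd differed by -1.08 ± 0.12 on the log2 scale (edgeR adjusted p = 2.5e-05). Laptm5, a lysosomal membrane protein, averaged 1318 ± 159 CPM in WT CD4 SP and 2152 ± 45.8 CPM in WT CD8 SP. Laptm5 differed by -0.71 ± 0.14 on the log2 scale (edgeR adjusted p = 0.0024). Lcp1, which encodes the actin bundler L-plastin, averaged 1699.7 ± 229 CPM in WT CD4 SP and 2822 ± 363 CPM in WT CD8 SP. Lcp1 differed by -0.73 ± 0.14 on the log2 scale (edgeR adjusted p = 0.0022).

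Genes of regulatory T cells were mostly higher in WT CD4 SP, which is the population where CD4+ regulatory cells would be sorted. Of 23 listed, 21 were tested, 13 were higher and 2 lower, with a median of 1.54. Foxp3 was at 31.5, 53.7 and 39.3 CPM in WT CD4 SP libraries 1 to 3, against 1.68, 2.68 and 1.42 CPM in WT CD8 SP libraries 1 to 3. Foxp3 encodes the lineage factor of regulatory T cells (log2 fold change 4.43 ± 0.37, edgeR adjusted p = 1.7e-06). In bulk libraries a larger share of regulatory cells and more RNA per cell cannot be told apart. Il2ra, the interleukin-2 receptor alpha chain, was at 19.7, 45.4 and 33.4 CPM in WT CD4 SP, against 0.399, 1.63 and 1.73 CPM in WT CD8 SP. Il2ra differed by 4.70 ± 0.46 on the log2 scale (edgeR adjusted p = 8.2e-06). Library 1 had the lowest Foxp3 and Il2ra of the 3 WT CD4 SP libraries. Ecm1, an extracellular matrix protein, averaged 176 ± 27.6 CPM in WT CD4 SP and 36.4 ± 6.98 CPM in WT CD8 SP (log2 fold change 2.27 ± 0.20, edgeR adjusted p = 2.7e-06), Ctla4 averaged 36.01 ± 3.50 CPM in WT CD4 SP and 7.50 ± 2.44 CPM in WT CD8 SP (log2 fold change 2.26 ± 0.42, edgeR adjusted p = 0.002) and Tnfrsf18, which encodes GITR, averaged 155 ± 26.8 CPM in WT CD4 SP and 59.6 ± 4.11 CPM in WT CD8 SP. Tnfrsf18 differed by 1.37 ± 0.20 on the log2 scale (edgeR adjusted p = 0.0003). Nrp1, a semaphorin receptor of thymic regulatory cells, averaged 26.7 ± 9.23 CPM in WT CD4 SP and 9.17 ± 2.59 CPM in WT CD8 SP. Nrp1 differed by 1.54 ± 0.27 on the log2 scale (edgeR adjusted p = 0.0011). The 2 lower members were Il2rb and Ikzf2. Il2rb, the beta chain shared by the interleukin-2 and interleukin-15 receptors, was at 124, 179.6 and 105 CPM in WT CD4 SP, against 609.9, 591 and 591 CPM in WT CD8 SP. Il2rb differed by -2.13 ± 0.18 on the log2 scale (edgeR adjusted p = 2e-06). The alpha and beta chains of this receptor thus differed in opposite directions.

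Genes that track the strength of T cell receptor (TCR) signals were more often higher than lower in WT CD4 SP, 7 against 3 of 25 tested, with a median log2 fold change of 0.18. The 3 lower ones were Ikzf2, Egr3 (log2 fold change -1.20 ± 0.33, edgeR adjusted p = 0.021) and Bcl2l11 (log2 fold change -1.13). Egr3 and Bcl2l11 each lost the call in 5 of the 6 fits that leave out a library. Itm2a, a membrane protein induced at positive selection, was at 793, 723 and 963 CPM in WT CD4 SP, against 134, 188 and 179 CPM in WT CD8 SP. Itm2a differed by 2.31 ± 0.21 on the log2 scale (edgeR adjusted p = 3.1e-06). Cd5, an inhibitory receptor whose level follows signal strength, was at 562, 701 and 706 CPM in WT CD4 SP, against 312, 359 and 366 CPM in WT CD8 SP. Cd5 differed by 0.92 ± 0.13 on the log2 scale (edgeR adjusted p = 0.00015). Izumo1r, folate receptor 4, averaged 254 ± 41.2 CPM in WT CD4 SP and 90.7 ± 23.1 CPM in WT CD8 SP (log2 fold change 1.49 ± 0.21, edgeR adjusted p = 0.00017), and Dusp5, a phosphatase of nuclear ERK, averaged 49.2 ± 8.32 CPM in WT CD4 SP and 19.6 ± 1.27 CPM in WT CD8 SP. Dusp5 differed by 1.33 ± 0.18 on the log2 scale (edgeR adjusted p = 0.00018). Of the TCR complex and its proximal signalling chain, 8 of 35 tested genes were higher and 7 lower. Lat, the adaptor of activated T cells, averaged 1374 ± 46.3 CPM in WT CD4 SP and 935 ± 41.2 CPM in WT CD8 SP (log2 fold change 0.56 ± 0.13, edgeR adjusted p = 0.0098), and Cd6, a receptor related to Cd5, averaged 1829.6 ± 213 CPM in WT CD4 SP and 1186 ± 96.1 CPM in WT CD8 SP. Cd6 differed by 0.63 ± 0.14 on the log2 scale (edgeR adjusted p = 0.0067). The phosphatase Ptpn22 averaged 237 ± 31.3 CPM in WT CD4 SP and 394 ± 46.2 CPM in WT CD8 SP (log2 fold change -0.73 ± 0.14, edgeR adjusted p = 0.0022) and Ptpn6, which encodes SHP-1, averaged 690.2 ± 28.7 CPM in WT CD4 SP and 1002 ± 133 CPM in WT CD8 SP. Ptpn6 differed by -0.54 ± 0.12 on the log2 scale (edgeR adjusted p = 0.0064). The count of 15 called genes in this list fell to 9 without WT CD4 SP library 3, to 9 without WT CD8 SP library 1 and to 8 without WT CD8 SP library 2.

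The variable segments of the receptor genes also differed. Of 76 tested alpha variable (Trav) segments, 24 were higher and 2 lower in WT CD4 SP, with a median log2 fold change of 0.74. Of 25 tested beta variable (Trbv) segments, 9 were higher and 2 lower, with a median of 0.33. The alpha constant gene Trac averaged 2141 ± 377 CPM in WT CD4 SP and 1339 ± 173 CPM in WT CD8 SP. Near-identical Trav copies can share reads, so values of single segments are uncertain. These families were counted after the values had been seen.

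Cytotoxic genes were mostly lower in WT CD4 SP where called. Of 25 listed genes of cytotoxic granules and killing, 23 were tested, 10 were lower in WT CD4 SP and 1 was higher, with a median log2 fold change of -0.76. Nkg7 was at 1.26, 2.09 and 5.47 CPM in WT CD4 SP libraries 1 to 3, against 1065, 1327 and 1295 CPM in WT CD8 SP libraries 1 to 3. Nkg7, a granule membrane protein needed for degranulation, had the largest fall among called genes with a mean log2 CPM of at least 3 (log2 fold change -8.71 ± 0.45, edgeR adjusted p = 1.6e-08), and its fold change was -9.47 without WT CD4 SP library 3, the highest of that group. Cst7 was at 4.18, 5.61 and 6.27 CPM in WT CD4 SP libraries 1 to 3, against 112, 101 and 102 CPM in WT CD8 SP libraries 1 to 3. Cst7 encodes cystatin F, an inhibitor of granule cathepsins (log2 fold change -4.29 ± 0.17, edgeR adjusted p = 7.9e-10). Prf1 was at 36.3, 31.7 and 30.2 CPM in WT CD4 SP libraries 1 to 3, against 113, 134 and 140.5 CPM in WT CD8 SP libraries 1 to 3. Prf1 encodes perforin, the pore-forming protein of killing (log2 fold change -1.98 ± 0.15, edgeR adjusted p = 8e-07), and all WT CD4 SP libraries held it at a lower but clear level. Ctsw, a cathepsin of cytotoxic cells, averaged 389 ± 31.6 CPM in WT CD4 SP and 1057 ± 143 CPM in WT CD8 SP. Ctsw differed by -1.44 ± 0.21 on the log2 scale (edgeR adjusted p = 0.00024). Gzmb, which encodes granzyme B and was picked after its values were seen, was at 0, 0 and 0.0457 CPM in WT CD4 SP, against 2.07, 1.35 and 2.56 CPM in WT CD8 SP, and its call (log2 fold change -6.82 ± 2.21, edgeR adjusted p = 0.046) was lost when any 1 of the 6 libraries was left out. Its fold change was -9.46 without WT CD4 SP library 3. The gene that went the other way was Fasl, the ligand of the death receptor Fas. Fasl was at 7.63, 7.37 and 12.6 CPM in WT CD4 SP, against 0.0798, 0.0502 and 0 CPM in WT CD8 SP (log2 fold change 7.68 ± 1.17, edgeR adjusted p = 0.00039), with a fold change of 8.44 without WT CD8 SP library 1.

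Runx proteins bind the sequence TGTGGT, and the promoters of both lineage factors and of 3 cytotoxic genes are shown for where it occurs in them. Both strands were searched. The windows run from 250 bases before to 50 bases after the RefSeq start (build GRCm38.p6), are written 5′ to 3′ on the gene's strand, and carry TGTGGT or its complement ACCACA in capitals. The 5 genes were chosen after their values were seen. A gene can have several windows, and here and below the first with a match was printed. Each printed window thus holds a match by the way it was picked. The Runx3 window is chr4:135120395-135120694 (plus strand), the Zbtb7b window chr3:89387622-89387921 (minus strand), the Nkg7 window chr7:43436888-43437187 (plus strand), the Prf1 window chr10:61297586-61297885 (plus strand) and the Cst7 window chr2:150570165-150570464 (plus strand).
Runx3: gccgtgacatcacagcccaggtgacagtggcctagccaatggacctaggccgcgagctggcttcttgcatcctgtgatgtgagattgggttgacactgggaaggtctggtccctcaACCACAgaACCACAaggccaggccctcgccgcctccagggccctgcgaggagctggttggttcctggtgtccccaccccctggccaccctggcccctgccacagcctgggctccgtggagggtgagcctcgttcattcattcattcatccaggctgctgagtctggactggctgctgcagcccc
Zbtb7b: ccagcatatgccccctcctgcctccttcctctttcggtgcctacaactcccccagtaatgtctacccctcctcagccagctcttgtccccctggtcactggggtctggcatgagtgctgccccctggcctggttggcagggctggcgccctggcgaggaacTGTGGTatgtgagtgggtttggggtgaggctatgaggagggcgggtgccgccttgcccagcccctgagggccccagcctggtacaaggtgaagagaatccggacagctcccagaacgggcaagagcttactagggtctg
Nkg7: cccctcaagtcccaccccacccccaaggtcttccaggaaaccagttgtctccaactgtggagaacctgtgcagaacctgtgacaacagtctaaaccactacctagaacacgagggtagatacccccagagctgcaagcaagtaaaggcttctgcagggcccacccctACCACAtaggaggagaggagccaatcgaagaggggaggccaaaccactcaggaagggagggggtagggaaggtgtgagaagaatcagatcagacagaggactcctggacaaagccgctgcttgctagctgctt
Prf1: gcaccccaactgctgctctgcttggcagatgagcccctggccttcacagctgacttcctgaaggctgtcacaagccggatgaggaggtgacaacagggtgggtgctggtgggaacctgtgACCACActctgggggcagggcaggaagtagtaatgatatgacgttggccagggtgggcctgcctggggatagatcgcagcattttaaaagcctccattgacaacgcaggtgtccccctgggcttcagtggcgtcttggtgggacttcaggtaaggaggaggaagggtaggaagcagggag
Cst7: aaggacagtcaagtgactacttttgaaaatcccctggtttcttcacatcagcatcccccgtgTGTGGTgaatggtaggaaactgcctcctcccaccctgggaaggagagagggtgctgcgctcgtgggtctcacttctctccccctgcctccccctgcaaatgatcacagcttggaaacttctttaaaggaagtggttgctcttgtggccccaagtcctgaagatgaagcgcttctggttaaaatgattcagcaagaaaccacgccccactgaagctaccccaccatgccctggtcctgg

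The printed Runx3 window held 2 matches and each of the other 4 printed windows held 1. A match was found in 12 of the 18 cytotoxic genes with a window (66.7%), in 5 of 11 natural killer receptor genes (45.5%) and in 3 of 21 helper-lineage genes (14.3%), against 15.7% of the 10573 tested genes with a window. Among genes changed at least 2-fold it was found in 16.5% of the 387 higher and 20.2% of the 624 lower in WT CD4 SP. A gene was counted when any of its windows held a match, here and for the motifs below. A match describes these letters in the window and not binding.

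Receptors shared with natural killer cells were lower in WT CD4 SP for 8 of 15 tested members of 28 listed, higher for 0, with a median of -1.75. Cd160 was at 1.21, 2.61 and 2.47 CPM in WT CD4 SP libraries 1 to 3, against 70.5, 95.7 and 99.6 CPM in WT CD8 SP libraries 1 to 3. Cd160 binds the TNF receptor family member HVEM (log2 fold change -5.40 ± 0.37, edgeR adjusted p = 2.1e-07). Cd226, an activating receptor for nectin-like ligands, was at 42.9, 44.4 and 43.7 CPM in WT CD4 SP, against 153, 134 and 139 CPM in WT CD8 SP. Cd226 differed by -1.70 ± 0.11 on the log2 scale (edgeR adjusted p = 1.2e-07). Klrd1, which encodes CD94, was at 0.0457, 0.476 and 1.74 CPM in WT CD4 SP, against 56.7, 70.3 and 67.96 CPM in WT CD8 SP (log2 fold change -6.43 ± 0.66, edgeR adjusted p = 1.1e-05), with a fold change of -7.87 without WT CD4 SP library 3. Cd7, a small immunoglobulin-family receptor, averaged 91.2 ± 12.1 CPM in WT CD4 SP and 277 ± 27.5 CPM in WT CD8 SP. Cd7 differed by -1.60 ± 0.15 on the log2 scale (edgeR adjusted p = 4.4e-06). Klrk1, which encodes NKG2D and was picked after its values were seen, had no count in WT CD4 SP and was at 0.266, 0.602 and 0.816 CPM in WT CD8 SP.

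Several of the largest falls were outside these lists. Adgrg5, an adhesion G protein-coupled receptor, was at 1.76, 4.51 and 4.78 CPM in WT CD4 SP, against 638, 561 and 557 CPM in WT CD8 SP. Adgrg5 differed by -7.31 ± 0.30 on the log2 scale (edgeR adjusted p = 1.4e-09). Myo1f, an unconventional myosin, averaged 3.24 ± 0.606 CPM in WT CD4 SP and 117 ± 2.60 CPM in WT CD8 SP. Myo1f differed by -5.17 ± 0.31 on the log2 scale (edgeR adjusted p = 5.4e-08). Eng, the TGF-beta co-receptor endoglin, averaged 1.61 ± 0.394 CPM in WT CD4 SP and 53.4 ± 1.29 CPM in WT CD8 SP. Eng differed by -5.05 ± 0.21 on the log2 scale (edgeR adjusted p = 1.4e-09). Sytl3, an effector of the secretory GTPase Rab27, averaged 2.43 ± 0.562 CPM in WT CD4 SP and 49.4 ± 5.73 CPM in WT CD8 SP (log2 fold change -4.35 ± 0.28, edgeR adjusted p = 9.6e-08), and Snai3, a zinc finger repressor of the Snail family, averaged 3.41 ± 0.994 CPM in WT CD4 SP and 59.3 ± 2.14 CPM in WT CD8 SP. Snai3 differed by -4.12 ± 0.23 on the log2 scale (edgeR adjusted p = 2.2e-08). The groups did not overlap for any of these 5 genes.

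Homing genes separated the populations in both directions. Itgae was at 6.24, 10.3 and 8.76 CPM in WT CD4 SP libraries 1 to 3, against 888, 867 and 850.02 CPM in WT CD8 SP libraries 1 to 3. Itgae encodes CD103, the alpha chain of the integrin that binds E-cadherin, and had the smallest adjusted p of all genes tested (log2 fold change -6.68 ± 0.20, edgeR adjusted p = 9e-11). Itgb7, its partner chain, was at 1115, 1280.4 and 1026 CPM in WT CD4 SP, against 1664, 1815 and 1868 CPM in WT CD8 SP. Itgb7 differed by -0.64 ± 0.09 on the log2 scale (edgeR adjusted p = 0.00018). Ccr9, the receptor for the gut and thymus chemokine CCL25, was at 24.1, 20.6 and 18.7 CPM in WT CD4 SP, against 358, 326 and 312 CPM in WT CD8 SP. Ccr9 differed by -3.97 ± 0.21 on the log2 scale (edgeR adjusted p = 2.1e-08). Cxcr6, the receptor for CXCL16, was at 11.2, 18.2 and 29.2 CPM in WT CD4 SP, against 194, 300.2 and 322 CPM in WT CD8 SP. Cxcr6 differed by -3.80 ± 0.40 on the log2 scale (edgeR adjusted p = 1.4e-05). Ccr8, the receptor for CCL1, went the other way, at 68.8, 54.1 and 65.97 CPM in WT CD4 SP, against 2.05, 5.65 and 6.16 CPM in WT CD8 SP. Ccr8 differed by 3.77 ± 0.42 on the log2 scale (edgeR adjusted p = 2.7e-05). In all, 3 of 16 tested chemokine receptors were higher and 4 lower. That count of 7 fell to 3 without WT CD4 SP library 3 or without WT CD8 SP library 1, and to 4 without WT CD4 SP library 2 or without WT CD8 SP library 2. Ccr9, Cxcr6 and Ccr8 kept their calls in those fits.

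Integrins and other adhesion genes were called evenly, 8 of 31 tested higher and 8 lower in WT CD4 SP. Cd81 and Cd9, both tetraspanins, averaged 136 ± 24.3 CPM in WT CD4 SP and 26.4 ± 8.60 CPM in WT CD8 SP (log2 fold change 2.36 ± 0.25, edgeR adjusted p = 1.5e-05) and 99.3 ± 19.2 CPM in WT CD4 SP and 35.99 ± 6.41 CPM in WT CD8 SP. Cd9 differed by 1.46 ± 0.20 on the log2 scale (edgeR adjusted p = 0.00015). Itgb3, the beta 3 integrin chain, was at 149, 258 and 98.6 CPM in WT CD4 SP, against 45.02, 39.3 and 53.02 CPM in WT CD8 SP. Itgb3 differed by 1.88 ± 0.29 on the log2 scale (edgeR adjusted p = 0.00038). Itga6, the alpha 6 integrin chain, averaged 195 ± 20.3 CPM in WT CD4 SP and 97.5 ± 3.87 CPM in WT CD8 SP. Itga6 differed by 1.00 ± 0.13 on the log2 scale (edgeR adjusted p = 0.00013). Lower in WT CD4 SP were Jaml, an adhesion protein of the junction family (13.8 ± 1.02 CPM in WT CD4 SP and 132 ± 13.9 CPM in WT CD8 SP; log2 fold change -3.25 ± 0.20, edgeR adjusted p = 7.3e-08), and Icam1, a ligand of the integrin LFA-1 (38.9 ± 7.79 CPM in WT CD4 SP and 143 ± 6.81 CPM in WT CD8 SP; log2 fold change -1.87 ± 0.14, edgeR adjusted p = 7.2e-07). Among maturation and egress genes 13 of 31 tested were higher and 4 lower, with a median of 0.37. S1pr1, the receptor that draws mature thymocytes into blood, picked after its values were seen, was at 1228, 1391 and 1383 CPM in WT CD4 SP, against 686, 852 and 853 CPM in WT CD8 SP. S1pr1 differed by 0.74 ± 0.13 on the log2 scale (edgeR adjusted p = 0.00097). Slfn1 and Slfn2, Schlafen genes of quiescent T cells, averaged 605 ± 70.8 CPM in WT CD4 SP and 181 ± 12.2 CPM in WT CD8 SP (log2 fold change 1.74 ± 0.12, edgeR adjusted p = 1.7e-07) and 1319 ± 129 CPM in WT CD4 SP and 580.2 ± 14.4 CPM in WT CD8 SP. Slfn2 differed by 1.18 ± 0.12 on the log2 scale (edgeR adjusted p = 1.4e-05).

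The Gimap genes, small GTPases of lymphocyte survival that sit in 1 cluster, were counted after their values had been seen. Of 9 tested symbols, 7 were higher and 1 lower in WT CD4 SP, with a median of 1.21. The 9 and the 7 include Gimap1os, an opposite-strand transcript and not a GTPase gene. Its log2 fold change, 1.21 ± 0.18, is the median. Gimap3 was at 2391, 2426 and 2104 CPM in WT CD4 SP, against 1045, 825 and 891 CPM in WT CD8 SP. Gimap3 differed by 1.33 ± 0.16 on the log2 scale (edgeR adjusted p = 4.7e-05). Gimap4 averaged 1506 ± 144 CPM in WT CD4 SP and 611 ± 21.3 CPM in WT CD8 SP (log2 fold change 1.30 ± 0.12, edgeR adjusted p = 4e-06), and Gimap6 averaged 1668 ± 263 CPM in WT CD4 SP and 702 ± 96.4 CPM in WT CD8 SP. Gimap6 differed by 1.25 ± 0.19 on the log2 scale (edgeR adjusted p = 0.0004). Gimap5, whose loss causes T cell lymphopenia in rodents, was the lower one, at 84.4, 78.8 and 76.9 CPM in WT CD4 SP, against 115, 127 and 124 CPM in WT CD8 SP. Gimap5 differed by -0.61 ± 0.10 on the log2 scale (edgeR adjusted p = 0.0008).

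Cytokine receptors and signalling genes showed small sets of calls. Among 28 tested cytokine receptors 5 were higher and 4 lower in WT CD4 SP. Beside Il2ra and Il2rb, Ifngr2, a chain of the interferon gamma receptor, averaged 142 ± 3.14 CPM in WT CD4 SP and 86.5 ± 3.18 CPM in WT CD8 SP (log2 fold change 0.72 ± 0.11, edgeR adjusted p = 0.00053), and Ifnar2, a chain of the type I interferon receptor, averaged 58.7 ± 3.24 CPM in WT CD4 SP and 82.3 ± 6.11 CPM in WT CD8 SP. Ifnar2 differed by -0.49 ± 0.10 on the log2 scale (edgeR adjusted p = 0.0049). Bcl3, an atypical I kappa B protein, averaged 112 ± 4.68 CPM in WT CD4 SP and 54.1 ± 12.6 CPM in WT CD8 SP. Bcl3 differed by 1.04 ± 0.15 on the log2 scale (edgeR adjusted p = 0.0003). Among secreted factors, Il16 averaged 515 ± 18.1 CPM in WT CD4 SP and 385 ± 20.2 CPM in WT CD8 SP (log2 fold change 0.42 ± 0.09, edgeR adjusted p = 0.0053) and Mif averaged 152 ± 25.9 CPM in WT CD4 SP and 250.01 ± 22.5 CPM in WT CD8 SP. Mif differed by -0.72 ± 0.12 on the log2 scale (edgeR adjusted p = 0.0011). Il21, a helper cytokine, was at 2.24, 2.26 and 2.10 CPM in WT CD4 SP and had no count in WT CD8 SP. Of the TGF-beta pathway, Skil, a corepressor of SMAD proteins, averaged 185 ± 6.49 CPM in WT CD4 SP and 83.5 ± 1.61 CPM in WT CD8 SP (log2 fold change 1.14 ± 0.15, edgeR adjusted p = 0.00011), and Tgfbr3, a co-receptor, averaged 116 ± 26.8 CPM in WT CD4 SP and 61.1 ± 18.2 CPM in WT CD8 SP. Tgfbr3 differed by 0.92 ± 0.22 on the log2 scale (edgeR adjusted p = 0.0087).

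A few genes were found almost entirely in 1 population. With a mean of at least 5 CPM in 1 population and at most 0.1 CPM in the other, 4 called genes were on in WT CD4 SP. In WT CD8 SP 6 genes were on, 2 of them predicted gene models. Haao was at 0, 0.0621 and 0.0686 CPM in WT CD4 SP libraries 1 to 3, against 66.2, 60.2 and 70.4 CPM in WT CD8 SP libraries 1 to 3. Haao encodes an oxygenase of the kynurenine route of tryptophan breakdown (log2 fold change -10.45 ± 0.48, edgeR adjusted p = 3.8e-09). Kcnc1, a voltage-gated potassium channel, had no count in WT CD4 SP and was at 16.5, 20.7 and 18.2 CPM in WT CD8 SP, at least 838-fold lower in WT CD4 SP when 3 counts over the group are taken as the floor. Akr1c18, an aldo-keto reductase of progesterone breakdown, was at 8.96, 8.92 and 16.01 CPM in WT CD4 SP and had no count in WT CD8 SP, at least 453-fold higher in WT CD4 SP by the same floor. Gpr55, a lipid receptor, was at 0, 0.0414 and 0 CPM in WT CD4 SP, against 11.8, 16.3 and 10 CPM in WT CD8 SP (log2 fold change -9.51 ± 1.18, edgeR adjusted p = 7.3e-05), and its fold change was -12.12 without WT CD4 SP library 2. Penk, which encodes preproenkephalin, met the rule through WT CD4 SP library 1 alone, at 18, 0 and 0.434 CPM in WT CD4 SP, against 0, 0.0502 and 0 CPM in WT CD8 SP. Its call was lost in 4 of the 6 fits that leave out a library, and its fold change was 3.50 without WT CD4 SP library 1.

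Proliferation genes were lower in WT CD4 SP almost throughout. Of 34 mitosis genes, all tested, 32 were lower and 0 higher, with a median log2 fold change of -2.04. Of 47 DNA replication genes, all tested, 40 were lower and 0 higher, with a median of -1.26. The summed level of the mitosis genes was 873 to 1188 CPM in WT CD4 SP libraries, against 2133 to 3253 CPM in WT CD8 SP libraries. That of the replication genes was 2650 to 3034 CPM in WT CD4 SP, against 4914 to 6620 CPM in WT CD8 SP. Top2a was at 25.9, 53.2 and 54.2 CPM in WT CD4 SP libraries 1 to 3, against 150.1, 242 and 269 CPM in WT CD8 SP libraries 1 to 3. Top2a encodes the topoisomerase that untangles chromosomes before division (log2 fold change -2.31 ± 0.26, edgeR adjusted p = 3.2e-05). Mki67 was at 10.99, 21.6 and 33.5 CPM in WT CD4 SP libraries 1 to 3, against 92.6, 119 and 118 CPM in WT CD8 SP libraries 1 to 3. Mki67 coats mitotic chromosomes and is absent from resting cells (log2 fold change -2.32 ± 0.33, edgeR adjusted p = 0.00022). WT CD8 SP library 1 was the lowest of its group for both genes, yet was above every WT CD4 SP library. Mki67 and also Pole, Ccnb2 and Mcm5 were picked after their values were seen.

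For Uhrf1, Mcm6 and Mcm3 WT CD8 SP library 1 was again the lowest of its group and above every WT CD4 SP library. Uhrf1 was at 23.2, 23.4 and 18.4 CPM in WT CD4 SP libraries 1 to 3, against 155, 202 and 186 CPM in WT CD8 SP libraries 1 to 3. Uhrf1 keeps DNA methylation at the replication fork (log2 fold change -3.06 ± 0.25, edgeR adjusted p = 1.4e-06). Mcm6 and Mcm3, subunits of the replicative helicase, were at 172, 210.1 and 220.2 CPM and 109, 119 and 119 CPM in WT CD4 SP, against 521, 664 and 707 CPM and 299.9, 462 and 462 CPM in WT CD8 SP (log2 fold changes -1.65 ± 0.14 and -1.82 ± 0.17, edgeR adjusted p = 1.3e-06 and 3.5e-06). Cdt1, which loads the helicase, averaged 47.9 ± 5.73 CPM in WT CD4 SP and 108 ± 7.90 CPM in WT CD8 SP (log2 fold change -1.18 ± 0.12, edgeR adjusted p = 7.9e-06), and Pole, the leading-strand polymerase, averaged 5.95 ± 3.40 CPM in WT CD4 SP and 55.8 ± 9.96 CPM in WT CD8 SP. Pole differed by -3.23 ± 0.43 on the log2 scale (edgeR adjusted p = 0.00012). Cyclin-dependent kinase 1 itself (Cdk1) averaged 8.64 ± 1.91 CPM in WT CD4 SP and 38.2 ± 13.7 CPM in WT CD8 SP. Cdk1 differed by -2.15 ± 0.27 on the log2 scale (edgeR adjusted p = 8.8e-05). Of 23 tested genes on the list of cycle inhibitors and quiescence 3 were higher and 7 lower, and the 7 included Cdk4, Cdk6 and Ccnd2, which drive the cycle. Btg1 and Btg2, both antiproliferative, averaged 1129 ± 37.2 CPM in WT CD4 SP and 737 ± 40.1 CPM in WT CD8 SP (log2 fold change 0.62 ± 0.09, edgeR adjusted p = 0.00033) and 384 ± 45.1 CPM in WT CD4 SP and 194 ± 7.41 CPM in WT CD8 SP. Btg2 differed by 0.98 ± 0.13 on the log2 scale (edgeR adjusted p = 0.00014). Cdkn2c, an inhibitor of the D-cyclin kinases, was lower (log2 fold change -1.21 ± 0.29, edgeR adjusted p = 0.0095), and its call was lost without WT CD8 SP library 3. The D-cyclin kinase Cdk6 averaged 10.2 ± 2.63 CPM in WT CD4 SP and 30.5 ± 10.6 CPM in WT CD8 SP (log2 fold change -1.59 ± 0.34, edgeR adjusted p = 0.0048) and Ccnd2 averaged 744 ± 53.3 CPM in WT CD4 SP and 1010.3 ± 13.3 CPM in WT CD8 SP. Ccnd2 differed by -0.44 ± 0.09 on the log2 scale (edgeR adjusted p = 0.0033). Without the libraries numbered 1, 31 mitosis and 40 replication genes were lower.

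**Figure D3:**
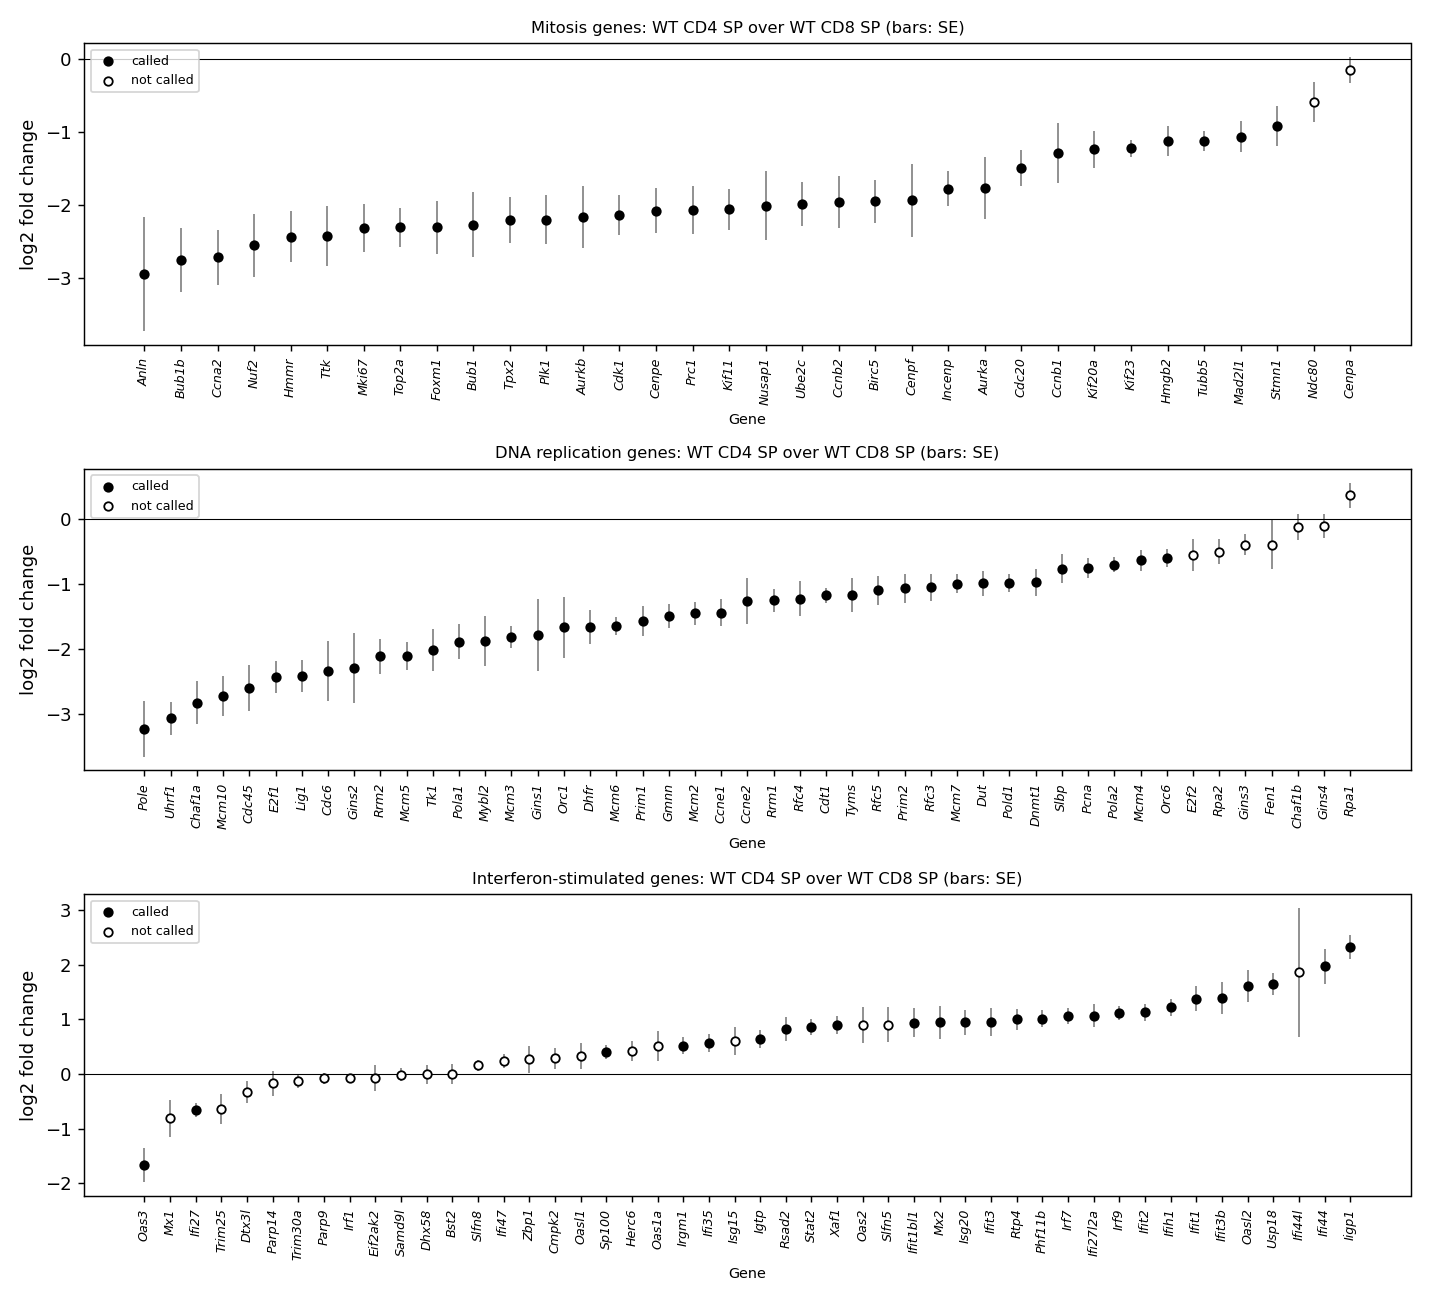
Log2 fold change of WT CD4 SP over WT CD8 SP with its SE for tested members of 3 lists, in order of fold change, with filled points for called genes. The top panel has 32 of 34 mitosis genes called below 0, the middle panel 40 of 47 replication genes called below 0, and in the bottom panel the called interferon-stimulated genes lie above 0 except Oas3 and Ifi27.

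Promoters of such genes carry known short elements, and the stretch around the matches is printed for 3 genes of each kind. The cell cycle homology region TTTGAA (or TTCAAA) and the NF-Y box CCAAT (or ATTGG) are in capitals for the mitosis genes Ccnb2 at chr9:70421530-70421736 (minus strand), Top2a at chr11:99024192-99024431 (minus strand) and Kif23 at chr9:61946777-61946821 (minus strand), and the E2F site TTTNGCGC (or its complement) for the replication genes Mcm6 at chr1:128359730-128359830 (minus strand), Mcm5 at chr8:75109341-75109382 (plus strand) and Uhrf1 at chr17:56304113-56304150 (plus strand). Coordinates are of GRCm38.p6, the sequences are from RefSeq, and the genes were chosen after their values were seen.
Ccnb2: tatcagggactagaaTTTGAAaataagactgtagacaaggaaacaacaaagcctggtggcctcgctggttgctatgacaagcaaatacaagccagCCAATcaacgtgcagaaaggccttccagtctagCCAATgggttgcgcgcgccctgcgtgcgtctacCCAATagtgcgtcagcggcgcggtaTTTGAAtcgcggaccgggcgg
Top2a: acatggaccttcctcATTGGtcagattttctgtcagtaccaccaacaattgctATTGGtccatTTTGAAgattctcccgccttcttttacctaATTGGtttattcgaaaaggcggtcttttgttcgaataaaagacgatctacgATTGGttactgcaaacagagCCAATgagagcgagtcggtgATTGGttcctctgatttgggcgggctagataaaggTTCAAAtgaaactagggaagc
Kif23: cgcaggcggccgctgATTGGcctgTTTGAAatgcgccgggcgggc
Mcm6: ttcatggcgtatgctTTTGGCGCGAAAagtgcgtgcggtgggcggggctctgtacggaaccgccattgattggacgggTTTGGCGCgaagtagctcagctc
Mcm5: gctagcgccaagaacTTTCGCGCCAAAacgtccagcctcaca
Uhrf1: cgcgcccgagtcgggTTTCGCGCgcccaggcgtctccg

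In Mcm6 and Mcm5 matches on opposite strands overlap, so they are capitalised as 1 run. Of the 27 mitosis genes with a window, 19 held the cell cycle homology region (70.4%) and 21 the NF-Y box (77.8%), against 14.8% and 42.9% of all 10573 tested genes with a window. Of 38 replication genes, 12 held an E2F site (31.6%), against 2.82% of all tested genes with a window. Among genes changed at least 2-fold the E2F site was in 0.517% of those higher and 5.45% of those lower in WT CD4 SP. Kif23 was at 36.7, 29.2 and 37.1 CPM in WT CD4 SP, against 76.2, 78.8 and 86.1 CPM in WT CD8 SP. Kif23 differed by -1.23 ± 0.11 on the log2 scale (edgeR adjusted p = 4.7e-06). Ccnb2, which encodes cyclin B2, averaged 16.5 ± 5.77 CPM in WT CD4 SP and 64.2 ± 19.6 CPM in WT CD8 SP (log2 fold change -1.96 ± 0.36, edgeR adjusted p = 0.0016), and Mcm5 averaged 80.6 ± 13.7 CPM in WT CD4 SP and 347 ± 83.3 CPM in WT CD8 SP. Mcm5 differed by -2.10 ± 0.21 on the log2 scale (edgeR adjusted p = 8.9e-06).

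Interferon-stimulated genes moved the other way. Of 51 listed, 49 were tested, 25 were higher and 2 lower in WT CD4 SP, with a median of 0.64. The summed level was 8334 to 9188 CPM in WT CD4 SP libraries, against 5519 to 6497 CPM in WT CD8 SP libraries. Iigp1 was at 88.5, 94.1 and 109 CPM in WT CD4 SP libraries 1 to 3, against 12.2, 22.6 and 23.3 CPM in WT CD8 SP libraries 1 to 3. Iigp1 encodes an immunity-related GTPase (log2 fold change 2.33 ± 0.22, edgeR adjusted p = 5.2e-06). Irf9 and Stat2, the DNA-binding and signalling subunits of the complex that type I interferon activates, averaged 509 ± 46.6 CPM in WT CD4 SP and 236 ± 2.40 CPM in WT CD8 SP (log2 fold change 1.11 ± 0.12, edgeR adjusted p = 2.4e-05) and 205 ± 40.7 CPM in WT CD4 SP and 113 ± 6.76 CPM in WT CD8 SP. Stat2 differed by 0.86 ± 0.14 on the log2 scale (edgeR adjusted p = 0.00073). Irf7, which amplifies interferon production and was picked after its values were seen, averaged 542 ± 44.8 CPM in WT CD4 SP and 260.5 ± 34.7 CPM in WT CD8 SP. Irf7 differed by 1.06 ± 0.15 on the log2 scale (edgeR adjusted p = 0.00024). Usp18, a negative regulator of the receptor, averaged 142 ± 27.2 CPM in WT CD4 SP and 45.5 ± 12.7 CPM in WT CD8 SP (log2 fold change 1.64 ± 0.21, edgeR adjusted p = 8.4e-05), and Ifih1, the RNA sensor MDA5, averaged 37.1 ± 1.30 CPM in WT CD4 SP and 15.9 ± 1.63 CPM in WT CD8 SP. Ifih1 differed by 1.22 ± 0.15 on the log2 scale (edgeR adjusted p = 7.3e-05). The 2 lower members were Oas3, which makes oligoadenylates, at 28.01, 37.2 and 18.9 CPM in WT CD4 SP, against 70.9, 97.9 and 99.2 CPM in WT CD8 SP (log2 fold change -1.67 ± 0.31, edgeR adjusted p = 0.0018), and Ifi27 (log2 fold change -0.66 ± 0.13, edgeR adjusted p = 0.0028). Among guanylate-binding proteins 3 of 11 were higher and 1 lower: Gbp10 averaged 54.9 ± 5.31 CPM in WT CD4 SP and 15.01 ± 5.14 CPM in WT CD8 SP (log2 fold change 1.87 ± 0.35, edgeR adjusted p = 0.0021) and Gbp3 averaged 13.5 ± 0.493 CPM in WT CD4 SP and 25.3 ± 4.005 CPM in WT CD8 SP. Gbp3 differed by -0.90 ± 0.17 on the log2 scale (edgeR adjusted p = 0.0018). The hosts of the groups differed, and the part of the host in the interferon genes was not tested and cannot be told apart from lineage.

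The interferon-stimulated response element (ISRE), searched on both strands as GAAA, any 2 bases and GAAA, is in capitals in stretches of the promoters of Ifit1 at chr19:34640770-34640828 (plus strand), Ifit3 at chr19:34583358-34583431 (plus strand) and Stat2 at chr10:128270261-128270300 (plus strand), which show how it sits in these genes (GRCm38.p6, from RefSeq, chosen after the values were seen).
Ifit1: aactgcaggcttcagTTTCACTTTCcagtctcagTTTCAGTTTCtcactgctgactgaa
Ifit3: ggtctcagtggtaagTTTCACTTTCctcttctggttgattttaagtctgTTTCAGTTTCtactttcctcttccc
Stat2: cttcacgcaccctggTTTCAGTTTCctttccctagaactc

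Ifit1, which binds viral RNA, was at 291, 317 and 443 CPM in WT CD4 SP, against 91.4, 149.6 and 164 CPM in WT CD8 SP. Ifit1 differed by 1.38 ± 0.22 on the log2 scale (edgeR adjusted p = 0.00067). Ifit3, its partner, was at 168, 162 and 185 CPM in WT CD4 SP, against 46.3, 102 and 119.9 CPM in WT CD8 SP. Ifit3 differed by 0.94 ± 0.26 on the log2 scale (edgeR adjusted p = 0.02). The element was in 18 of the 36 interferon-stimulated genes with a window (50%), against 3.76% of all tested genes with a window. It was in 6.2% of genes at least 2-fold higher and in 3.85% of those at least 2-fold lower in WT CD4 SP.

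**Figure D4:**
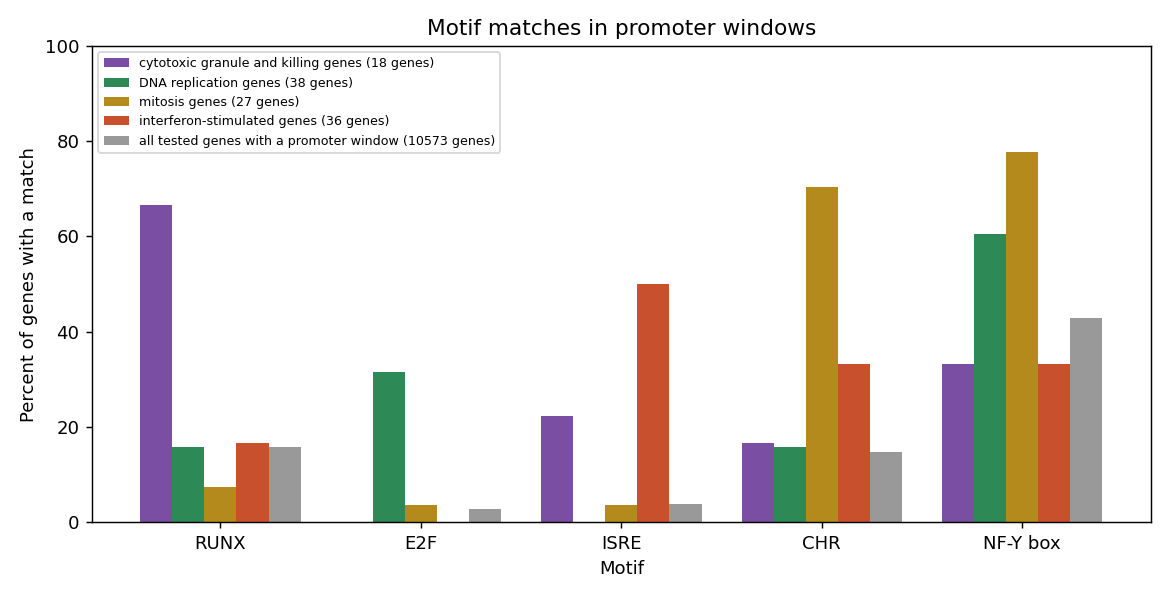
Percent of genes (y axis) with each motif (x axis) in any of their promoter windows of 300 bases, with bars by gene list and grey bars for the 10573 tested genes with a window. The RUNX bar is highest for cytotoxic genes (66.7%), E2F for replication genes (31.6%), ISRE for interferon-stimulated genes (50%) and CHR for mitosis genes (70.4%).

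Amino acid transport and glycolysis genes were more often called lower than higher in WT CD4 SP. Of 19 tested amino acid transporters 9 were lower in WT CD4 SP and 0 higher, with a median of -0.64. Slc38a1, a glutamine carrier, was at 90.2, 96.6 and 101 CPM in WT CD4 SP, against 218, 207 and 203 CPM in WT CD8 SP. Slc38a1 differed by -1.13 ± 0.15 on the log2 scale (edgeR adjusted p = 0.00015). Slc43a1, a carrier of large neutral amino acids, averaged 0.867 ± 0.454 CPM in WT CD4 SP and 14.4 ± 2.81 CPM in WT CD8 SP. Slc43a1 differed by -4.05 ± 0.60 on the log2 scale (edgeR adjusted p = 0.00028). Of 24 glycolysis genes, all tested, 8 were lower and 2 higher, with a median of -0.15. Their summed levels overlapped, at 7745 to 8219 CPM in WT CD4 SP and 7277 to 8746 CPM in WT CD8 SP. Gapdh averaged 337 ± 13.5 CPM in WT CD4 SP and 702 ± 70.8 CPM in WT CD8 SP (log2 fold change -1.06 ± 0.12, edgeR adjusted p = 3e-05), and Slc16a1, the lactate carrier MCT1, averaged 51.5 ± 5.68 CPM in WT CD4 SP and 147 ± 6.98 CPM in WT CD8 SP. Slc16a1 differed by -1.51 ± 0.19 on the log2 scale (edgeR adjusted p = 7.9e-05). Ldhb, the lactate dehydrogenase chain of oxidative tissue, was among the 2 higher, at 162, 122 and 148 CPM in WT CD4 SP, against 38.6, 45.1 and 44.5 CPM in WT CD8 SP. Ldhb differed by 1.75 ± 0.18 on the log2 scale (edgeR adjusted p = 1.2e-05). Of the cholesterol list 2 of 26 were higher and 2 lower, a share of 15.4% called that is not above the 18% of all tested genes.

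Cytosolic ribosomal protein genes, picked by symbol and counted after the values had been seen, were lower in WT CD4 SP for 39 of 88 tested and higher for 0. The 88 also hold the pseudogene Rplp0-ps1 and ribosomal protein-like genes such as Rpl7l1 and Rpl22l1. The 39 include the like gene Rpl39l, at 0 CPM in WT CD4 SP and 0.576 CPM in WT CD8 SP. The fold change was below 0 for 81 of the 88, with a median of -0.49. Rps2 was at 251, 253 and 272 CPM in WT CD4 SP, against 482, 444 and 433 CPM in WT CD8 SP. Rps2 differed by -0.81 ± 0.16 on the log2 scale (edgeR adjusted p = 0.0028). Rpl4, like Rps2 picked after its values were seen, averaged 728 ± 68.3 CPM in WT CD4 SP and 1074 ± 30.8 CPM in WT CD8 SP. Rpl4 differed by -0.56 ± 0.11 on the log2 scale (edgeR adjusted p = 0.0029). These genes have many near-identical pseudogenes that can take reads, so single values are uncertain. The count rested on single libraries: it was 9 without WT CD4 SP library 1, 18 without WT CD4 SP library 2, 14 without WT CD8 SP library 1, 16 without WT CD8 SP library 2, 24 without WT CD8 SP library 3 and 38 without WT CD4 SP library 3, while the median stayed between -0.36 and -0.57.

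Of 24 tested immediate early and heat-shock genes 4 were higher and 8 lower in WT CD4 SP, with a median log2 fold change of 0.175. The immediate early genes Dusp1, Junb and Ppp1r15a were higher, with log2 fold changes of 2.07, 1.095 and 1.33. Dusp1 lost its call without WT CD4 SP library 1, and Junb in 4 of the 6 fits that leave out a library. Heat-shock genes were among the lower ones. Hsp90ab1, a chaperone of signalling kinases, was at 753, 781 and 837 CPM in WT CD4 SP, against 1248, 1469 and 1404 CPM in WT CD8 SP (log2 fold change -0.80 ± 0.08, edgeR adjusted p = 1.1e-05), and Hspd1, the mitochondrial chaperonin, averaged 149.6 ± 32.4 CPM in WT CD4 SP and 262 ± 15.9 CPM in WT CD8 SP. Hspd1 differed by -0.81 ± 0.15 on the log2 scale (edgeR adjusted p = 0.0015). Of 50 actin cytoskeleton genes, a list added after the values had been seen, 19 were lower and 1, Pdlim4, was higher. Zyx, the focal adhesion protein zyxin, was at 110.4, 127 and 123 CPM in WT CD4 SP, against 382, 466 and 433 CPM in WT CD8 SP. Zyx differed by -1.83 ± 0.10 on the log2 scale (edgeR adjusted p = 2.5e-08). The count of 20 called actin genes fell to 13 without WT CD4 SP library 1 and to 13 without WT CD4 SP library 3. Galectin, annexin and S100 genes, which mark effector and memory cells, were lower for 10 of 24 tested and higher for 3. Tagln2, which encodes transgelin-2, is described with them but belongs to none of these families. Lgals3 and Lgals4 were higher, with log2 fold changes of 1.53 and 1.26, and each lost its call in 2 of the 6 fits that leave out a library. Tagln2 averaged 125 ± 11.5 CPM in WT CD4 SP and 426 ± 36.1 CPM in WT CD8 SP (log2 fold change -1.77 ± 0.11, edgeR adjusted p = 7.5e-08), Lgals1, which encodes galectin-1, averaged 63.1 ± 14.03 CPM in WT CD4 SP and 207 ± 10.8 CPM in WT CD8 SP (log2 fold change -1.71 ± 0.17, edgeR adjusted p = 7.7e-06) and S100a11 averaged 15.8 ± 6.38 CPM in WT CD4 SP and 71.01 ± 5.25 CPM in WT CD8 SP. S100a11 differed by -2.17 ± 0.24 on the log2 scale (edgeR adjusted p = 2.4e-05). Lgals9, galectin-9, averaged 556 ± 67.1 CPM in WT CD4 SP and 390.1 ± 36.9 CPM in WT CD8 SP. Lgals9 differed by 0.51 ± 0.13 on the log2 scale (edgeR adjusted p = 0.013).

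Members of some families differed in opposite directions. Ly6c1 was at 23.8, 23.02 and 23.3 CPM in WT CD4 SP, against 0.266, 1.15 and 1.03 CPM in WT CD8 SP (log2 fold change 4.82 ± 0.38, edgeR adjusted p = 8.1e-07), while its neighbour Ly6c2 was at 1.90, 3.39 and 2.90 CPM in WT CD4 SP, against 48.2, 62.4 and 56.3 CPM in WT CD8 SP. Ly6c2 differed by -4.35 ± 0.25 on the log2 scale (edgeR adjusted p = 3.2e-08). These paralogs are close in sequence, and reads that match both could be split between them. Of 28 genes of MHC class I and antigen processing 5 were higher and 6 lower. H2-K1, a classical class I heavy chain, averaged 5278 ± 233 CPM in WT CD4 SP and 3601 ± 80.1 CPM in WT CD8 SP. H2-K1 differed by 0.55 ± 0.08 on the log2 scale (edgeR adjusted p = 0.00026). H2-T22, a nonclassical chain, averaged 456 ± 56.6 CPM in WT CD4 SP and 238 ± 13.8 CPM in WT CD8 SP (log2 fold change 0.93 ± 0.15, edgeR adjusted p = 0.00053), whereas Tapbpl, a peptide editor, averaged 122 ± 8.35 CPM in WT CD4 SP and 205 ± 20.7 CPM in WT CD8 SP (log2 fold change -0.76 ± 0.13, edgeR adjusted p = 0.00079) and H2-Q6 averaged 13.6 ± 1.05 CPM in WT CD4 SP and 39.6 ± 4.94 CPM in WT CD8 SP. H2-Q6 differed by -1.54 ± 0.23 on the log2 scale (edgeR adjusted p = 0.00029). Class I genes are alike too, so their values carry the same uncertainty. Of 41 tested glycosyltransferases 7 were higher and 10 lower. St3gal2, which sialylates O-glycans, averaged 21.1 ± 5.97 CPM in WT CD4 SP and 1.13 ± 0.634 CPM in WT CD8 SP (log2 fold change 4.21 ± 0.38, edgeR adjusted p = 3e-06), and Chst15, a chondroitin sulfotransferase, averaged 14.6 ± 2.96 CPM in WT CD4 SP and 83.1 ± 7.87 CPM in WT CD8 SP. Chst15 differed by -2.51 ± 0.17 on the log2 scale (edgeR adjusted p = 1.9e-07).

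Channels, cyclic AMP enzymes and corepressors gave smaller sets. Of 29 tested calcium and potassium channels 5 were higher and 6 lower in WT CD4 SP. Kcnn4, a calcium-activated potassium channel of T cells, averaged 945 ± 115 CPM in WT CD4 SP and 573 ± 21.4 CPM in WT CD8 SP (log2 fold change 0.72 ± 0.11, edgeR adjusted p = 0.00055), and Kcna3, a voltage-gated one, averaged 41.3 ± 10.8 CPM in WT CD4 SP and 109.8 ± 8.002 CPM in WT CD8 SP. Kcna3 differed by -1.41 ± 0.17 on the log2 scale (edgeR adjusted p = 7.2e-05). Pde7a, which degrades cyclic AMP, averaged 38.8 ± 13.1 CPM in WT CD4 SP and 128 ± 17.2 CPM in WT CD8 SP (log2 fold change -1.73 ± 0.27, edgeR adjusted p = 0.00047), and Adcy3, which makes it, averaged 40.9 ± 3.53 CPM in WT CD4 SP and 85.2 ± 8.78 CPM in WT CD8 SP. Adcy3 differed by -1.06 ± 0.14 on the log2 scale (edgeR adjusted p = 0.00014). Of the NuRD complex and other corepressors, 1 of 27 was higher and 7 were lower, 8 in all, and 5 were called without WT CD4 SP library 3. Chd3 averaged 232 ± 30.9 CPM in WT CD4 SP and 113 ± 12.6 CPM in WT CD8 SP (log2 fold change 1.03 ± 0.20, edgeR adjusted p = 0.0023) and Gatad2a averaged 189 ± 5.64 CPM in WT CD4 SP and 352 ± 6.84 CPM in WT CD8 SP. Gatad2a differed by -0.90 ± 0.09 on the log2 scale (edgeR adjusted p = 8.5e-06). Dtx1, a Notch target gene, was at 167, 198 and 119.9 CPM in WT CD4 SP, against 547, 459.7 and 445 CPM in WT CD8 SP (log2 fold change -1.58 ± 0.19, edgeR adjusted p = 6.6e-05), and 4 of 17 tested genes of the Notch and Wnt list were lower with 0 higher. That is a share of 23.5% called, near the 18% of all genes tested.

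**Figure D5:**
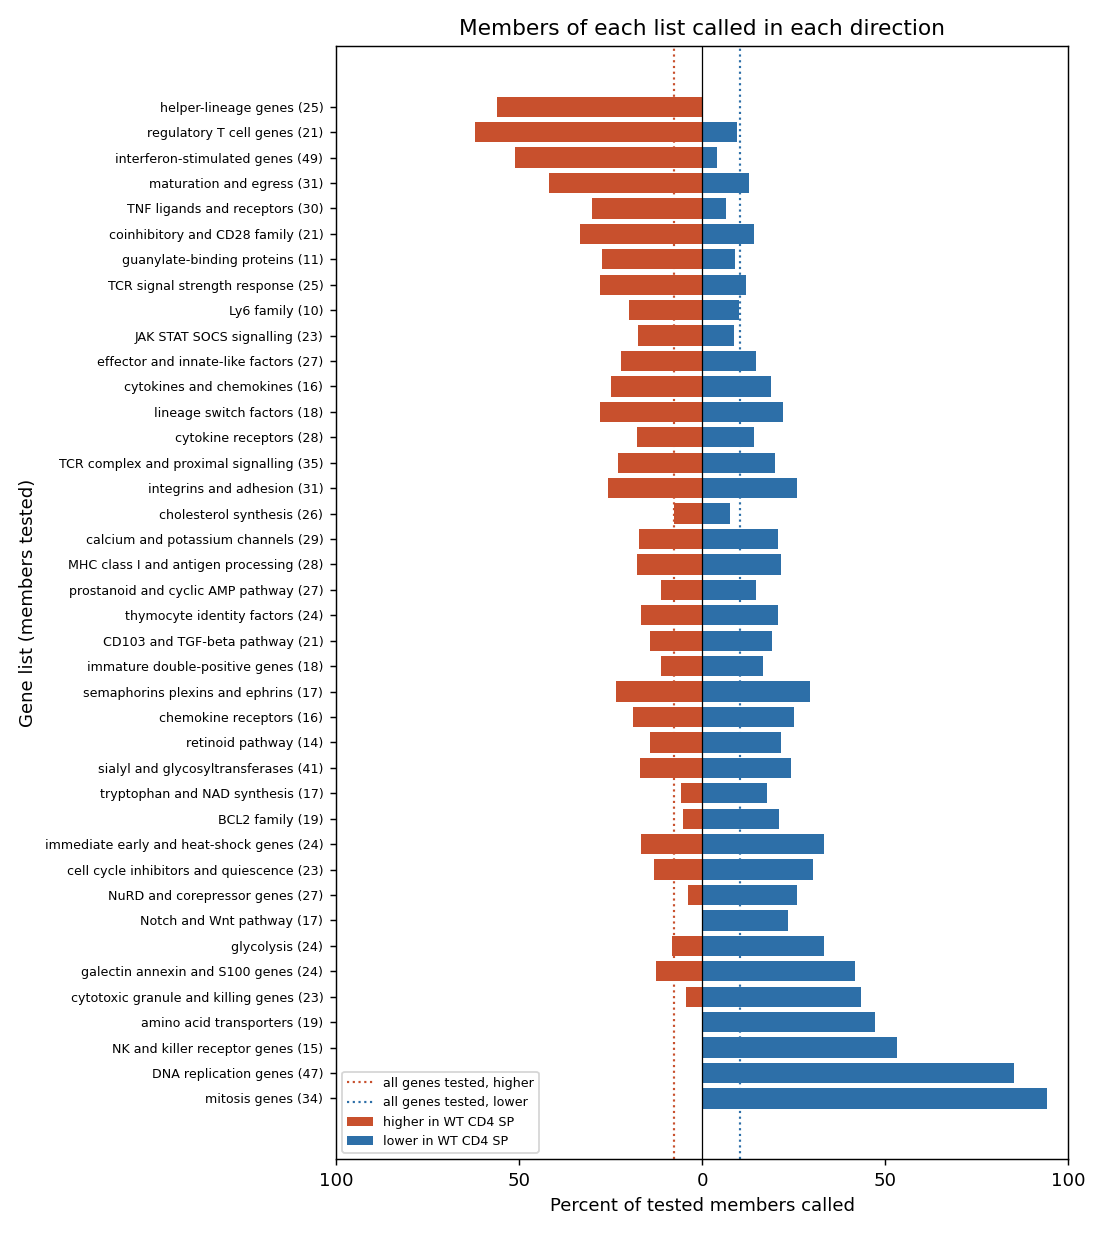
Percent of each list's tested members called higher in WT CD4 SP (orange, left of 0) and lower (blue, right of 0), with the number tested in parentheses and dotted lines at the 7.72% and 10.3% of all genes. Helper-lineage, regulatory T cell and interferon-stimulated genes extend left, and mitosis, DNA replication and natural killer receptor genes extend right.

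The other lists held calls in both directions. Higher and lower in WT CD4 SP were 3 and 4 of 21 genes of the CD103 and TGF-beta pathway, and 4 and 2 of 23 JAK, STAT and SOCS genes. The counts were 4 and 3 of 16 cytokines and chemokines, 1 and 3 of 17 tryptophan and NAD genes, 3 and 4 of 27 prostanoid and cyclic AMP genes, and 2 and 3 of 14 retinoid genes. They were 4 and 5 of 17 semaphorins, plexins and ephrins and 1 and 4 of 19 BCL2 family genes. Over all genes tested 7.72% were higher and 10.3% lower, 18% in all. The share called was 23.5% of tryptophan and NAD genes and 25.9% of prostanoid and cyclic AMP genes. It was 26.1% of JAK, STAT and SOCS genes and 26.3% of BCL2 family genes. These shares lie near 18% and are not read as results about those genes. The remaining lists here had between 33.3% (CD103 and TGF-beta pathway) and 52.9% (semaphorins, plexins and ephrins) called. Calls of cytokines fell to 4, and of retinoid genes to 3, without WT CD8 SP library 2 or 3. Calls of the BCL2 family fell to 2 without WT CD4 SP library 3 or WT CD8 SP library 2, and to 3 without WT CD4 SP library 1 or WT CD8 SP library 1 or 3. Those of semaphorins fell to 5 without WT CD4 SP library 2 or 3 or WT CD8 SP library 2, and to 4 without WT CD8 SP library 1 or 3.

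Genes of other cells that the gate could hold were read last. Of 9 tested gamma-delta T cell markers edgeR called 0, although 4 had an unadjusted p under 0.05 and 1 was called with RLE size factors, without WT CD4 SP library 2 or without WT CD4 SP library 3. The defining gene Trdc was at 10.6, 8.49 and 13.6 CPM in WT CD4 SP, against 6.44, 7.33 and 7.20 CPM in WT CD8 SP. Their summed level was 19.6 to 32.3 CPM in WT CD4 SP and 21.0 to 23.3 CPM in WT CD8 SP. Of 13 NKT and innate-like markers 1 was higher and 5 lower, and Zbtb16, the defining factor of NKT cells, was not called at 1.87, 1.18 and 1.72 CPM in WT CD4 SP, against 0, 0.276 and 0 CPM in WT CD8 SP. The 5 lower ones were Klrb1c, Cxcr6, Il2rb, Cd160 and Plac8, and the part of innate-like cells was not tested. Of 12 listed B cell markers 6 were tested and 2 were lower in WT CD4 SP. Ighd was at 0.0685, 0.352 and 0.229 CPM in WT CD4 SP, against 33.4, 50.5 and 52.1 CPM in WT CD8 SP (log2 fold change -7.68 ± 0.87, edgeR adjusted p = 3.2e-05), and Cd79b was at 1.60, 1.68 and 0.434 CPM in WT CD4 SP, against 41.2, 39.1 and 42.8 CPM in WT CD8 SP. Cd79b differed by -5.05 ± 0.47 on the log2 scale (edgeR adjusted p = 4.5e-06). Cd79a, which B cells express with Cd79b, was at 4.04, 5.55 and 4.80 CPM in WT CD4 SP, against 2.10, 1.98 and 2.87 CPM in WT CD8 SP. Of 12 tested myeloid and dendritic markers 3 were higher, Itgam, H2-Ab1 and Cd74, and 1 lower. Those 4 calls fell to 1 without WT CD8 SP library 3 and to 2 without WT CD4 SP library 1 or 3 or WT CD8 SP library 1 or 2. The list summed to 41.5 to 87.0 CPM in WT CD4 SP, against 17.4 to 31.5 CPM in WT CD8 SP, and erythroid and platelet markers to 2.55 to 11.1 CPM in WT CD4 SP, against 0.292 to 0.689 CPM in WT CD8 SP. Of 5 tested erythroid and platelet markers the globin genes Hbb-bs and Hba-a1 were higher and 0 lower, and the 2 calls became 0 without any 1 WT CD8 SP library, 1 without WT CD4 SP library 1 or 3 and 3 without WT CD4 SP library 2. Of 15 listed stromal and endothelial markers 7 were tested, Pecam1 and Epcam were higher and Col1a1 was lower. They summed to 258.0 to 317.0 CPM in WT CD4 SP, against 171.3 to 182.4 CPM in WT CD8 SP. Most of that was Pecam1, an adhesion molecule that T cells also bear. With TMM factors, which the sums lack, Pecam1 was at 281 ± 26.7 CPM in WT CD4 SP, against 168 ± 10.2 CPM in WT CD8 SP. Of 5 listed sex-linked genes 1 was tested and edgeR called 0, although that gene had an unadjusted p under 0.05 and was called without the libraries numbered 1 and in the fit of the 6 WT libraries alone. The sex-linked genes summed to 17.3 to 19.3 CPM in WT CD4 SP, against 27.2 to 62.5 CPM in WT CD8 SP. Lyz2 was found in WT CD4 SP library 1 at 28.4 CPM and was under 0.4 CPM elsewhere. The part of these cells in the results was not tested. Among genes of immature double-positive thymocytes 2 of 18 were higher and 3 lower, and Rag1 and Rag2 stayed at or below 3.06 CPM in every library.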

How the data were processed

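RNA of sorted thymocytes was sequenced as paired-end libraries, per the labels' protocols. The authors deposited raw counts per gene for each library, and the build was mm39 and the tools STAR, HTSeq, Trimmomatic, DESeq2 and bcl2fastq 2.17 per the submitters' processing notes, while other versions and whether counting used strand are not given. They also deposited a normalised table whose values equal CPM over the gene total in 100% of the values compared at a tolerance of 0.01, and this table entered only the limma alternative, as log2 of the value plus a pseudocount of 1. A further 3 library columns in each series-wide file fit no sample and were left unused. The 5 HTSeq summary lines, which held 16.04 to 18.41% of a library, were dropped.

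Counts were tested in R 4.3.3 with edgeR 4.0.16: filterByExpr with a minimum count of 10 and a minimum total of 15, TMM scaling, 5 group means over 15 libraries, the quasi-likelihood F test of WT CD4 SP minus WT CD8 SP, and Benjamini-Hochberg adjustment at 0.05. CPM values of single genes were computed from the deposited counts with TMM-scaled sizes. Summed levels of lists are CPM over the gene total, without TMM factors. A 3-count floor over a group bounded folds against 0 and covers counting error only. limma 3.58.1 and DESeq2 1.42.0 served as alternatives, and the test was checked on simulated data. Genes outside the stated picks were named by rule: the 4 marker genes with Cd8b1 and Gata3, the 20 largest folds each way with groups that do not overlap and a mean log2 CPM of 3 or more, the 10 largest CPM differences each way, genes above 5 CPM in 1 group and at most 0.1 CPM in the other, and up to 4 called members each way of each of 49 lists by smallest adjusted p. Members and lists were chosen with earlier results of these data known. Values of 2 single genes that the rule would name are not reported here, and list counts include them.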

Additional observations from a re-analysis of the deposited data

How the results depend on the processing

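The count of 2981 called genes was 2977 with DESeq2's size factors (RLE), 3090 with no filter on low counts, 2812 with only the 6 wild-type libraries, 3408 with limma on the log2 of the deposited normalised values plus 1, and 3809 with DESeq2. Counting only changes of at least 2-fold gave 1397. The fit of only the 6 wild-type libraries kept 81.4% of the calls of the main fit, which used all 15 libraries. Leaving out 1 library at a time gave 1908 to 2623, the lowest without WT CD8 SP library 2, and each such fit has fewer samples. Whether shared replicate numbers pair the samples is not given. Correlations of deviations from the group means across 11652 genes were 0.2, -0.0314 and 0.153 for same-numbered libraries. For differently numbered libraries they lay between -0.233 and 0.19. With 3 libraries a group the deviations are tied to each other, so these values cannot decide it. With a replicate block the count was 3523 over 15 libraries and 2773 over 6. A fit without the libraries numbered 1 called 3003 genes, and a term for those libraries gave 3791. The symbol families (ribosomal, Gimap and variable segments), their alternatives and the actin list were chosen after seeing the data. Of 300 named genes followed through 15 settings, 0 reversed, 59 lost the call in at least 1 fit that leaves out a library and 43 in at least 1 other setting. All 300 were called in the main fit and the settings share libraries, so a reversal was unlikely from the start. Depth limits the low genes: a gene with no count in a group has only a bound.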
